A study of Mus musculus with 4 samples.

Results

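The genes described here are 50 genes of DNA replication and mitosis, divided into genes of S phase (24 genes) and of G2/M (26 genes). They were chosen by their symbols from the 31053 features of 4 count tables, and all 50 were found in every table. The tables hold single-cell RNA counts from the part of the mouse testis that contains the rete testis (RT) and the adjacent tubules, dissected at postnatal day 14. Between them lies the Sertoli valve (SV), a collar of Sertoli cells at the end of each seminiferous tubule. The question addressed was which of these cells divide at day 14.

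The strain was C57BL/6 in all libraries. The 2 control libraries carry the label SF1Cre, and the 2 Sox17-cKO libraries carry SF1Cre:Sox17flox/flox. SF1Cre is a Cre recombinase driven by Nr5a1 (SF1), which is active in the somatic lineages of the gonad. The methods of the study describe the controls as floxed littermates, whereas the labels give both groups the Cre. Each library pooled 3 pups with 5000 cells targeted, and the supernatant with most interstitial cells was discarded, so the shares of cell types do not describe the whole organ. The libraries stand for pools and not for single animals.

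A dividing cell first loads the MCM helicase onto origins of replication, copies its DNA in S phase with the help of PCNA, nucleotide enzymes and histone chaperones, and then makes the kinases, cyclins, kinetochore proteins and spindle motors of G2 and mitosis. In the testis, Sertoli cells multiply in fetal and early postnatal life and stop before puberty, which sets their final number. Spermatogonia keep dividing throughout life. They enter meiosis as preleptotene spermatocytes, which copy their DNA a last time, and meiotic cells use many of the same genes without dividing by mitosis.

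S and G2/M genes are known targets of cell cycle transcription factors. E2F factors bind near genes of S phase, and the DREAM and MuvB complexes bind near genes of mitosis at the cell cycle homology region (CHR). Promoter stretches of 300 bases, from 250 before to 50 after the start, were found in RefSeq (GRCm38.p6) for 41 of the 50 genes. They were searched on either strand for the E2F motifs TTTGGCGC, TTTCGCGC, TTTCCCGC and TTTGCCGC, the CHR motifs TTTGAA and TTCGAA, and CCAAT, the motif of NF-Y. The S and the G2/M genes differed in the motifs found. An E2F motif was found in 7 of 18 S genes (38.9%), in 1 of 23 G2/M genes (4.35%) and in 2.61% of the promoters of 27025 genes. A CHR motif was found in 4 of 18 S genes (22.2%), in 19 of 23 G2/M genes (82.6%) and in 21.7% of all promoters. Within the 150 bases before the start alone it was found in 2 of 18 S genes (11.1%), in 6 of 23 G2/M genes (26.1%) and in 11.2% of all promoters. CCAAT was found in 12 of 18 S genes (66.7%), in 19 of 23 G2/M genes (82.6%) and in 41.1% of all promoters. A match is a description of letters and not of binding. No promoter was matched for Tpx2, Tipin, Exo1, Mcm4, Ccne2, Gins2, Aurkb, Ccna2 and Rfc2.

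The 150 bases before the start of an S gene, of a G2/M gene and of Cdk1, the G2/M gene with an E2F motif, are printed to show the motifs, both G2/M genes being among the 6 with a CHR motif there, with E2F, CHR and CCAAT matches in capitals. Mcm5 (chr8:75109359-75109508, plus strand) encodes a subunit of the helicase, Mki67 (chr7:135716380-135716529, minus strand) encodes the Ki-67 protein that coats mitotic chromosomes, and Cdk1 (chr10:69352913-69353062, minus strand) encodes the kinase that drives entry into mitosis.
Mcm5: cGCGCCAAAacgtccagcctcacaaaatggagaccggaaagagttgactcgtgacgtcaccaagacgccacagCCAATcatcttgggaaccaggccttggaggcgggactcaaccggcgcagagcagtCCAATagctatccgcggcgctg
Mki67: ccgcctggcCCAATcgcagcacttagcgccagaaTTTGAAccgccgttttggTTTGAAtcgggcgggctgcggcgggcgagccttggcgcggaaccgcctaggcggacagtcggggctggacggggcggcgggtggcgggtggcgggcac
Cdk1: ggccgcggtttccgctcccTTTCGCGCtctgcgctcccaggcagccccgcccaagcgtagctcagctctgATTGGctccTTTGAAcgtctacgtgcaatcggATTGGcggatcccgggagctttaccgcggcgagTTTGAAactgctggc

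Windows of 30 bases around an E2F motif (capitals) are shown for a further 3 replication genes, because Mcm6 and Mcm3 move in opposite directions between the Sertoli cells described below. They are Mcm3 (chr1:20820275-20820304, minus strand), Mcm6 (chr1:128359793-128359822, minus strand) and Hells (chr19:38930917-38930946, plus strand), a remodeller of replicating chromatin.
Mcm3: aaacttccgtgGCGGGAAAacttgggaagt
Mcm6: gtatgcttttgGCGCGAAAagtgcgtgcgg
Hells: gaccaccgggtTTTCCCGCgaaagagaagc

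The same is shown around a CHR motif for G2/M genes on which the results turn: Top2a (chr11:99024195-99024224, minus strand), which untangles sister chromatids, Ube2c (chr2:164769888-164769917, plus strand) and Cdc20 (chr4:118437344-118437373, minus strand), which act in the anaphase-promoting complex, Plk1 (chr7:122159453-122159482, plus strand), a mitotic kinase, and Kif23 (chr9:61946780-61946809, minus strand), a motor of cytokinesis.
Top2a: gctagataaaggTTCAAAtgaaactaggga
Ube2c: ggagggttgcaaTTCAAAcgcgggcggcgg
Cdc20: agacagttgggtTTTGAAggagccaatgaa
Plk1: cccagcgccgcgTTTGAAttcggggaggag
Kif23: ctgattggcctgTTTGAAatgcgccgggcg

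Of 46001 barcodes, 22567 with 1000 to 4500 detected genes were retained, between 5174 and 6135 per library, with median depths of 5040 to 7872 UMIs (unique molecular identifiers, each standing for 1 captured RNA molecule). Any pair of libraries shared 7 to 9 retained barcodes. Cells were clustered without the 50 genes and named from marker lists as tubule Sertoli-like (5166 cells), SV Sertoli-like (235), RT-like (230), fibroblast-like (2973), interstitial stromal-like (1663), peritubular myoid-like (2222), pericyte-like (297), Leydig-like (243), macrophage-like (243), endothelial-like (71) and, of germ cells, undifferentiated spermatogonia-like (765), differentiating spermatogonia-like (3487), preleptotene to zygotene-like (1755) and zygotene to pachytene-like (969). A further 17 mesothelial-like cells were too few to describe, and 2231 cells stayed unnamed. The list of SV markers summed to 240, 2201 and 469 counts per 1000000 UMIs of the class and library (CPM) in tubule Sertoli-like, SV Sertoli-like and RT-like cells, and the list of RT markers to 5.47, 29.4 and 4993 CPM. These lists named the classes, so their sums describe the naming and do not test it. Sox17 stood at 356 and 312 CPM in RT-like cells of the controls and at 48.9 and 34.6 CPM in those of the Sox17-cKO, a log2 fold change of -3.10 ± 0.34 (SE; edgeR quasi-likelihood, Benjamini-Hochberg adjusted p = 0.0204). In the 71 endothelial-like cells the fold change of Sox17 was -2.10 ± 0.43 and did not pass (adjusted p = 0.479). Numbers 1 and 2 of the libraries coincide with 2 versions of the counting software, and values are therefore given for each library in the order control 1, control 2, Sox17-cKO 1 and Sox17-cKO 2. Which of the pooled pups were littermates across these libraries is not stated in the labels. The p-values measure only spread between these libraries, which edgeR estimates in part from all genes together.

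Germ cell RNA was present in every cell type. A list of 9 germ cell genes (Ddx4, Dazl, Mael, Tex101, Sycp3, Tex15, Tdrd1, Taf7l and Rpl39l) summed to 615, 229, 820 and 320 CPM in tubule Sertoli-like cells, to 435, 106, 631 and 285 CPM in SV Sertoli-like cells and to 420, 90.02, 575 and 212 CPM in RT-like cells. It summed to means of 9478 and 9569 CPM in the 2 classes of spermatocytes. The first library of each genotype was higher than the second in these 3 somatic classes. Over the 4 libraries the sum had the order of the G2/M sum in tubule Sertoli-like, RT-like and myoid-like cells but not in the other somatic classes. In myoid-like cells it stood at 366.5, 127.1, 396.4 and 274.8 CPM, beside G2/M sums of 680.4, 380.3, 820.7 and 500.3 CPM. The part of germ cell RNA in the low levels of the listed genes in somatic cells was not tested. Values of the germ cell list are given beside several of the results it moves with.

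Germ cells held most of the transcripts. In differentiating spermatogonia-like cells the S genes summed to a mean of 4706 CPM and the G2/M genes to 5010 CPM, against 2597 and 2396 CPM in undifferentiated spermatogonia-like cells. Preleptotene to zygotene-like cells held 5107 and 4751 CPM. In zygotene to pachytene-like cells the G2/M sum of 3594 CPM stood above the S sum of 2151 CPM, and the S sum was between 1831 and 2370 CPM in the 4 libraries. By mean level, 11 S and 15 G2/M genes were highest in differentiating spermatogonia-like cells. A further 10 S and 6 G2/M genes were highest in preleptotene to zygotene-like cells, 3 S genes in undifferentiated spermatogonia-like cells and 5 G2/M genes in zygotene to pachytene-like cells. No gene of the list was highest in a somatic class.

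**Figure D1:**
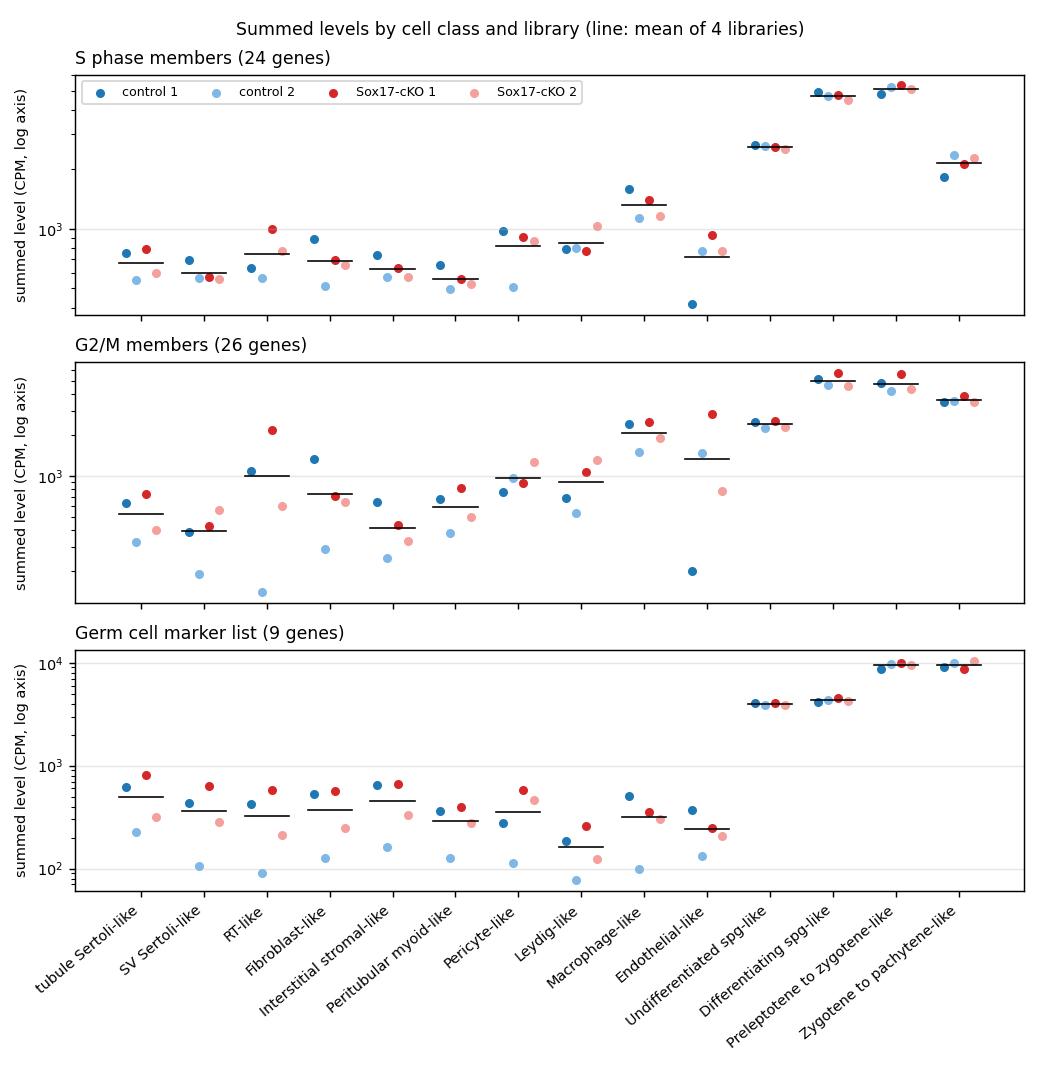
Summed level of the 24 S genes and of the 26 G2/M genes in CPM on a log axis for each cell class, with the 9 germ cell genes beside them; each point is 1 of the 4 libraries. In the mean over libraries the germ cell classes stand above all somatic classes, but the G2/M sums of endothelial-like cells in Sox17-cKO 1 (2842 CPM) and of macrophage-like cells (up to 2476 CPM) reach those of undifferentiated spermatogonia-like cells; macrophage-like cells stand highest among the larger somatic classes, and the G2/M sum of RT-like cells ranges from 140 to 2157 CPM.

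To ask how many cells divide, each cell was thinned to 2000 UMIs and the number of distinct G2/M genes it held was counted. Holding 10 or more of the 26, a limit chosen after the values at lower limits had been seen, is called a broad mitotic programme here. Of differentiating spermatogonia-like cells, 653 of 3346 (19.5%, 95% exact binomial interval 18.2 to 20.9%) reached it, with 19.0, 17.8, 22.4 and 17.9% in the 4 libraries. Of undifferentiated spermatogonia-like cells 23 of 760 (3.03%, 1.93 to 4.51%) did, of preleptotene to zygotene-like cells 55 of 1742 (3.16%) and of zygotene to pachytene-like cells 26 of 902 (2.88%). The share of undifferentiated cells was thus close to those of both meiotic classes, whose cells use these genes without dividing by mitosis. In germ cells the limit therefore does not by itself count cells in mitosis. At equal depth per cell, the pooled share of the differentiating class stood above those of the other 3 germ cell classes. A difference was not tested, because the intervals count cells and not libraries. Intervals cover counting error only. The limit of 4500 genes left out 1763 undifferentiated and 2411 differentiating spermatogonia-like cells. Of cells with 3 or more G2/M genes, 73.8% of undifferentiated and 43.3% of differentiating ones lay above it. The shares therefore describe retained cells and not the whole classes.

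With 3 or more G2/M genes instead, 90.9% of differentiating, 68.4% of undifferentiated, 94.8% of preleptotene to zygotene-like and 86.9% of zygotene to pachytene-like cells were counted. The share of undifferentiated cells was nearly the same in the 4 libraries, at 69.4, 68.7, 68.2 and 65.1%. The order of the germ cell classes thus depended on the limit. At 3 or more G2/M genes the preleptotene to zygotene-like class was highest, and at 10 or more the differentiating class. For the S genes, 5 or more were held by 37.4% of undifferentiated, 78.4% of differentiating, 81.9% of preleptotene to zygotene-like and 20.3% of zygotene to pachytene-like cells.

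Differentiating were compared with undifferentiated spermatogonia-like cells by edgeR with the library as a block, and 45 of the 50 genes were higher and 1 was lower. Of all genes tested in this comparison, 32.1% were higher and 32.1% lower, so the list held a larger share of higher genes. The median log2 fold change of the list was 0.86. Mki67 stood at 64.5, 34.97, 66.1 and 35.2 CPM in undifferentiated and at 321, 246, 409 and 171 CPM in differentiating cells (log2 fold change 2.38 ± 0.10, adjusted p = 3.8e-13), and the groups did not overlap. Ccne2, a cyclin that starts S phase, rose from 15.2, 22.4, 18.9 and 20.02 CPM to 113, 143, 136 and 136 CPM (2.74 ± 0.11, adjusted p = 5.5e-13). The differentiating class includes 521 cells named preleptotene-like when the 50 genes were kept for clustering, and Ccne2 was higher still in preleptotene to zygotene-like cells. Top2a (log2 fold change 1.75), Nusap1 of the spindle (1.76), the spindle assembly factor Tpx2 (1.67) and the histone chaperone Nasp (1.32) were also among the 6 genes with the smallest adjusted p. Chaf1b, a subunit of the chaperone that places histones on new DNA, was the gene that fell, from 25.2, 21.0, 33.7 and 18.4 CPM to 10.2, 5.98, 7.63 and 5.48 CPM (-1.78, adjusted p = 1.4e-07). Ung (-0.13), Cdca8 (0.09), Mcm7 (-0.09) and Bub1b (0.03) did not pass the test.

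Preleptotene-like cells, which separated from later spermatocytes at a finer clustering, were compared with differentiating spermatogonia-like cells. They also separated when the 50 genes were kept for clustering, and 521 differentiating spermatogonia-like cells then took this name. Most G2/M genes fell while S genes moved both ways: 19 of 26 G2/M genes were lower and 4 higher (median log2 fold change -0.72), and 11 of 24 S genes were lower and 9 higher (-0.17). In all, 13 genes were higher and 30 lower, against 31.4% and 34.2% of all genes tested. The share of lower genes stood above its background and that of higher genes did not. Ccne2 (log2 fold change 1.86), Rrm2 of nucleotide synthesis (1.21), Tipin of the replication fork (0.78), Top2a (0.82), the checkpoint kinase Bub1 (1.37) and Kif23 (1.41) were the higher genes with the smallest adjusted p. The lower ones were Ube2c (-2.30), cyclin A2 (Ccna2, -2.005), cyclin B1 (Ccnb1, -3.21), the centromeric histone Cenpa (-2.55), Plk1 (-3.44) and Aurora B (Aurkb, -2.67). The mean of Ccnb1 was 189 CPM in differentiating and 21.5 CPM in preleptotene to zygotene-like cells, and that of Plk1 104 and 8.52 CPM.

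No cell with a broad mitotic programme was detected among the retained tubule Sertoli-like cells. Of 4666 cells, 0 held 10 or more G2/M genes, which allows a share of up to 0.0643% (0 of 1549, 831, 1108 and 1178 cells in the 4 libraries), and the most held by any cell was 9. Among the 1756 tubule Sertoli-like cells with over 4500 detected genes, which were left out of the retained cells, 7 reached 10 or more (0.399%, 0.160 to 0.820%). In SV Sertoli-like cells 1 of 215 did (0.465%, 0.0118 to 2.56%), a cell of Sox17-cKO 2. The interval of the SV cells contains the limit for tubule cells, so a difference between them was not detectable at this depth. A further 201 SV Sertoli-like cells had over 4500 detected genes and are not in this share.

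The share with 3 or more G2/M genes gave another picture for tubule Sertoli-like cells. It was 9.47% (442 of 4666, 8.65 to 10.4%), with 12.3, 2.17, 16.4 and 4.33% in the 4 libraries, the same order as that of the germ cell list. In the same cells, 9.94% held 3 or more of the 9 germ cell genes, a list of another size and abundance, so the 2 shares are given side by side only. The class spans 2 clusters, and the share was 7.60% in the one with a median of 8370 UMIs before thinning and 12.1% in the one with 3002 UMIs, where cells with fewer than 3 G2/M genes held means of 0.787 and 1.41 UMIs of the germ cell list. Over the whole class, cells with 3 or more G2/M genes held a mean of 2.48 UMIs of the germ cell list and the rest 1.04. In SV Sertoli-like cells 3.72% (8 of 215, 1.62 to 7.2%) held 3 or more G2/M genes, with 3.08, 0, 6.82 and 4.35% in the 4 libraries, and 3.26% held 3 or more germ cell genes. Before thinning, at median depths of 5798 and 6678 UMIs, the shares were 41.97% and 28.9%.

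Summed levels did not separate tubule from valve cells. The S genes stood at 751, 552, 788 and 599 CPM in tubule Sertoli-like cells (673 ± 115 CPM, mean ± SD, n = 4) and at 694, 565, 574 and 558 CPM in SV Sertoli-like cells (598 CPM). The G2/M genes stood at 632, 328, 736 and 404 CPM in tubule cells (525 ± 191 CPM) and at 389, 189, 426 and 566 CPM in SV cells (392 ± 155 CPM). Per UMI of the germ cell list there were 1.06 G2/M UMIs in tubule and 1.08 in SV Sertoli-like cells, with 0.897 to 1.43 and 0.675 to 1.99 over the libraries. The germ cell classes held 0.604 (undifferentiated), 1.15 (differentiating), 0.501 (preleptotene to zygotene-like) and 0.376 (zygotene to pachytene-like).

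**Figure D2:**
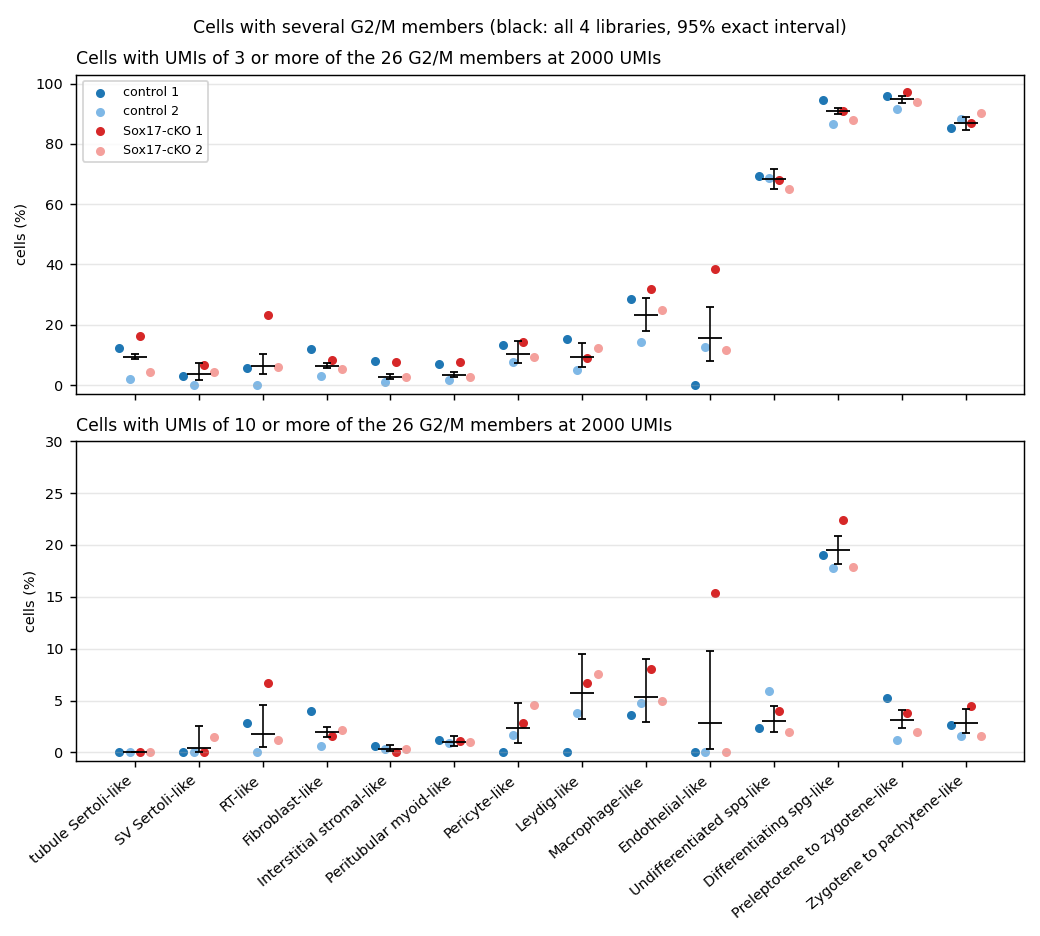
Share of cells (percent) that held 3 or more, and 10 or more, of the 26 G2/M genes after thinning to 2000 UMIs, by class; points are the 4 libraries. At 10 or more genes, tubule Sertoli-like cells are at 0 in all 4 libraries, Leydig-like and macrophage-like cells are the highest larger somatic classes at 5.76% and 5.37%, and differentiating spermatogonia-like cells stand at 19.5%.

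Some genes of the list were nevertheless high in tubule Sertoli-like cells. Cdk1 stood at 87.4, 93.6, 111 and 98.4 CPM there (97.5 ± 9.9 CPM), beside 96.4, 92.0, 87.5 and 104 CPM in differentiating spermatogonia-like cells, and the values overlapped. In SV Sertoli-like cells it stood at 33.0, 26.6, 47.3 and 62.0 CPM (42.2 ± 15.8 CPM), below tubule Sertoli-like cells in every library. Tpx2 stood at 72.5, 56.4, 110 and 57.9 CPM in tubule and at 11.0, 19.9, 34.7 and 27.4 CPM in SV cells, and the groups again did not overlap. Over the libraries the germ cell list stood at 615, 229, 820 and 320 CPM in tubule cells. Tpx2 had the same order as that list, whereas Cdk1 was lowest in control 1 and highest, like the list, in Sox17-cKO 1.

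Cdk1 was detected apart from the rest of the mitotic programme in tubule Sertoli-like cells. After thinning, 835 of the cells (17.9%) held Cdk1, and 14.5% of these held 2 or more other G2/M genes, against 14.8% of the cells without Cdk1. The shares in the 4 libraries were 17.7 against 19.0%, 8.03 against 3.60%, 22.0 against 25.0% and 7.21 against 7.74%, so the cells with Cdk1 were higher in control 2 and lower in the other 3 libraries. In this count Cdk1, Tpx2 and Kif23, 3 genes singled out after their values were seen, were left out of the others. Cells with Tpx2 (15.2 against 14.7%) were alike in this, whereas for Kif23 (21.0 against 14.2%) and Mki67 (30.8 against 13.4%) the cells with the gene held others more often. The cells with and without Cdk1 held means of 1.15 and 1.19 UMIs of the germ cell list. In other somatic classes Cdk1 came with the rest: 35.1 against 8.58% in fibroblast-like cells, 23.2 against 6.50% in peritubular myoid-like cells, 80.0 against 8.77% in Leydig-like cells (15 cells with Cdk1) and 74.1 against 25.1% in macrophage-like cells (27 cells). In SV Sertoli-like cells the 10 cells with Cdk1 gave 30% against 7.81%. Without Cdk1, Tpx2 and Kif23, 4.39% of tubule and 1.86% of SV Sertoli-like cells held 3 or more of the remaining 23 G2/M genes.

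**Figure D3:**
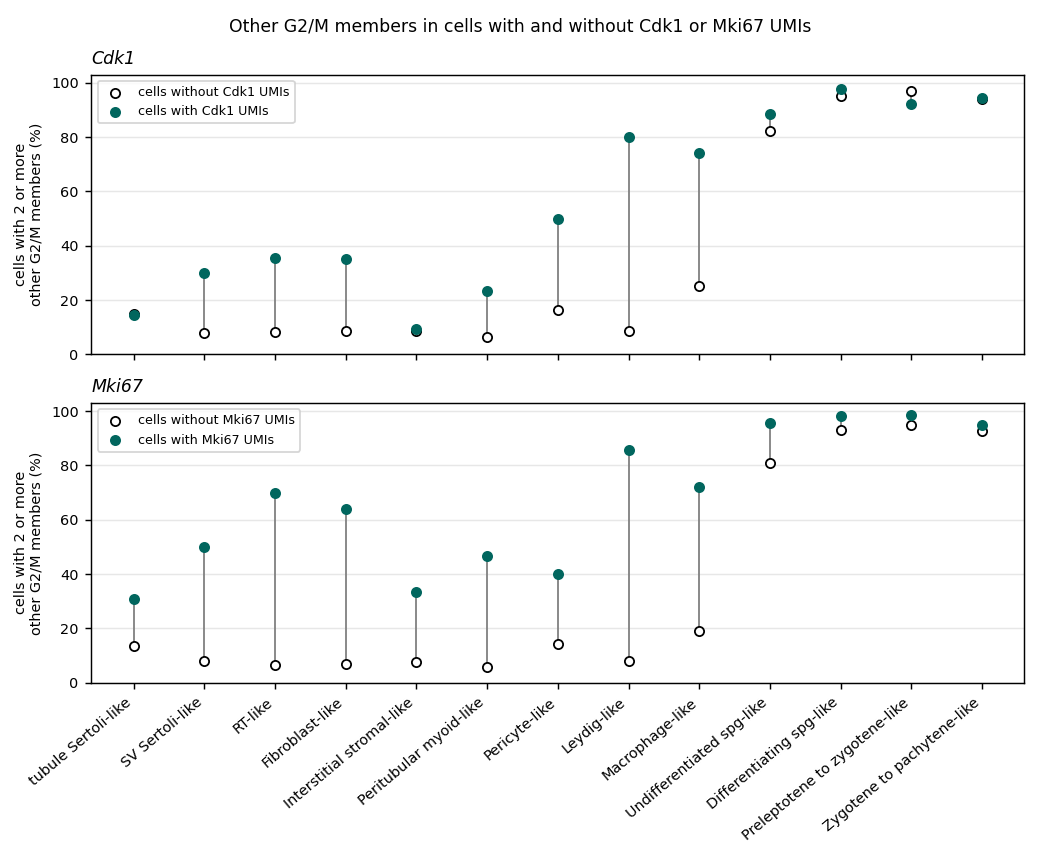
Percent of cells that held 2 or more other G2/M genes, among cells with and without a UMI of the named gene, by class. For Cdk1 in tubule Sertoli-like cells the values are 14.5% and 14.8%, whereas in Leydig-like cells they are 80.0% and 8.77%.

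Between SV and tubule Sertoli-like cells, 4 of 49 genes tested were higher in the valve and 7 were lower, against 14.2% and 14.5% of all genes tested. The median log2 fold change was -0.10 for the list and -0.06 for all genes. Neither count stands above the background. The higher genes were Mcm4 (1.27 ± 0.31, adjusted p = 0.00073) and Mcm6 (0.91 ± 0.24, adjusted p = 0.0017) of the helicase, Rrm1 (0.91 ± 0.23, adjusted p = 0.0008), the large subunit of ribonucleotide reductase, and Hmmr (1.41 ± 0.48, adjusted p = 0.018), a spindle protein. Mcm6 stood at 65.9, 43.2, 25.2 and 25.6 CPM in SV and at 24.5, 15.9, 20.9 and 20.6 CPM in tubule cells, with the 2 control libraries highest. The call for Mcm6 was lost without control 1 (adjusted p = 0.141), that for Mcm4 without Sox17-cKO 2 (adjusted p = 0.0556), and that for Hmmr without control 1 (adjusted p = 0.0532) and without Sox17-cKO 2 (adjusted p = 0.722). Without Sox17-cKO 2 the count of higher genes was 2 (11.6% of all genes tested), and without Sox17-cKO 1 it was 7 (13.1%).

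The genes lower in the valve were led by Tpx2 (-1.68 ± 0.22, adjusted p = 4.5e-10) and Cdk1 (-1.17 ± 0.17, adjusted p = 2.7e-08). Ung, the enzyme that removes uracil from DNA, stood at 52.9, 79.9, 49.1 and 72.4 CPM in tubule and at 22.0, 36.6, 9.46 and 32.8 CPM in SV cells (-1.33 ± 0.21, adjusted p = 2.2e-07). Mcm3 (-1.39 ± 0.34, adjusted p = 0.00053), the exonuclease Exo1 (-2.38 ± 0.59, adjusted p = 0.00077), Kif23 (-0.97 ± 0.24, adjusted p = 0.00077) and Nasp (-0.44 ± 0.14, adjusted p = 0.01) followed. Exo1 in the valve rests on 4 UMIs in all, 0, 1, 3 and 0 in the 4 libraries. The tubule cells of these comparisons also carried the higher germ cell sums given above. Mcm3 and Mcm6, subunits of the same helicase, moved in opposite directions.

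Other genes of the pathway were counted from lists that hold none of the 50. Of 43 tested mitosis genes 0 were higher and 7 were lower in the valve, among them Racgap1 of cytokinesis (log2 fold change -1.98) and the CDK subunits Cks2 (-0.72) and Cks1b (-0.73). Of 43 replication genes 0 were higher and 3 lower, among them Rpa2 of single-stranded DNA binding (-0.72) and Dut, which removes dUTP (-0.44). Of 20 regulators of the cell cycle 6 were higher and 5 lower. Over all genes tested 14.2% were higher and 14.5% lower. The counts of higher mitosis and of higher replication genes, 0 in each list, were below this background. The count of lower mitosis genes was near it and that of lower replication genes below it. Those of the few regulators were above it in both directions.

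Cyclin D1 (Ccnd1), which pushes cells out of G1, was the regulator with the smallest adjusted p. It stood at 19.8, 16.04, 24.3 and 19.3 CPM in tubule and at 70.3, 66.5, 117 and 166 CPM in SV Sertoli-like cells (2.38, adjusted p = 9.6e-20), and its level in RT-like cells was 87.0, 84.8, 110 and 122 CPM. Cdkn1a, which encodes the CDK inhibitor p21, was also higher in the valve, at 121, 69.8, 120 and 223 CPM against 10.3, 27.2, 38.4 and 45.02 CPM (2.24, adjusted p = 1.5e-19). Neither gene overlapped between the 2 classes, so the valve held more transcript of an activator and of an inhibitor of the cycle. Cyclin D2 (Ccnd2) was higher at 173 against 80.7 CPM (1.09, adjusted p = 1.2e-11) and Ccnd3 at 9.81 against 2.70 CPM (1.64, adjusted p = 0.024), while Cdkn1b, the inhibitor p27, was lower at 33.7 against 59.4 CPM (-0.85, adjusted p = 0.00047). E2f1 (6.65 CPM in tubule and 4.86 CPM in SV cells), Foxm1 (2.46 and 1.24 CPM) and Mybl2 (2.04 and 0.456 CPM), transcription factors of the cycle, were low in both, against 57.8, 34.9 and 34.5 CPM in differentiating spermatogonia-like cells. Cdkn1c stood at 1.66 CPM in tubule cells and at 0 in all SV libraries.

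RT-like cells held a small fraction of cells with a broad mitotic programme, which rested on few cells and differed between libraries. Of 220 cells, 4 held 10 or more G2/M genes (1.82%, 0.498 to 4.59%), 1 of 35, 0 of 71, 2 of 30 and 1 of 84 in the 4 libraries. They held a mean of 0.25 UMIs of the germ cell list, beside 0.587 in cells with fewer than 3 G2/M genes. With 3 or more G2/M genes the share was 6.36% (14 of 220, 3.52 to 10.5%), with 5.71, 0, 23.3 and 5.95% in the 4 libraries, and 5% held 3 or more germ cell genes. These few cells held 73.1% of all G2/M UMIs of the class, against 32.8% in tubule and 38.4% in SV Sertoli-like cells. Mki67 was detected in 4.55% of RT-like cells, at 0, 2.82, 16.7 and 3.57% per library, and of the 10 cells with it 70.0% held 2 or more other G2/M genes, against 6.67% of those without. All these shares cover retained cells. A further 246 RT-like cells had over 4500 detected genes, and 63.2% of all RT-like cells with 3 or more G2/M genes lay among them.

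The G2/M genes summed to 1082, 140, 2157 and 602 CPM in RT-like cells (995 ± 865 CPM), a spread as wide as the mean, and the S genes to 635, 564, 999 and 770 CPM (742 CPM). There were 3.07 G2/M UMIs per UMI of the germ cell list, with 2.58, 1.56, 3.75 and 2.84 in the 4 libraries. Against tubule Sertoli-like cells, 18 of 50 genes were higher and 8 lower (24.6% and 28.4% of all genes tested), of which 14 higher and 3 lower were G2/M genes. In this fit the share of higher genes stood above its background and that of lower genes below. With cells over 4500 genes added, 11 were higher and 13 lower (28.8% and 30.8% of all genes), so neither stood above, and with DESeq2 10 were higher and 5 lower (15.0% and 12.1%). The median log2 fold change was 0.89 over the G2/M genes, -0.03 over the S genes and -0.09 over all genes tested.

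Ube2c led the higher genes, at 151, 6.93, 216 and 37.6 CPM in RT-like and 20.9, 7.76, 17.8 and 6.13 CPM in tubule cells (2.43 ± 0.31, adjusted p = 1.4e-07), and the value of control 2 lay within the tubule range. Mki67 stood at 37.8, 8.66, 179 and 46.6 CPM against 14.01, 6.70, 19.9 and 12.2 CPM (1.80 ± 0.30, adjusted p = 1.2e-05), again with control 2 inside the range of the tubule cells. Birc5, which encodes survivin of the chromosomal passenger complex (1.67 ± 0.31, adjusted p = 4.8e-05), Nusap1 (1.96 ± 0.37, adjusted p = 6.4e-05), Gins2 of the helicase (1.33 ± 0.25, adjusted p = 6.5e-05) and Mcm6 (1.02 ± 0.21, adjusted p = 0.00022) completed the 6 with the smallest adjusted p. Mcm6 was even across the RT libraries, at 45.4, 53.7, 44.9 and 49.6 CPM, all above the tubule cells. Gins2 stood at 22.7, 39.8, 48.9 and 48.1 CPM against 12.6, 12.0, 19.3 and 11.4 CPM and did not overlap. The other higher genes were Ccnb2, Ccna2, Hmmr, Mcm4, Top2a, Tyms, Cenpf, Cdc20, Kif11, Cenpa, Plk1 and Anln, with log2 fold changes of 0.72 for Cenpf to 1.74 for Ccnb2. Without Sox17-cKO 1 the number of higher genes was 10 (23.9% of all genes tested), and without control 2 it was 20 (19.7%).

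The lower genes in RT-like cells were Ung (-1.67, adjusted p = 6.7e-07), Cdk1 (-1.61 ± 0.25, adjusted p = 3.8e-06), Tpx2 (-1.63 ± 0.28, adjusted p = 2.2e-05), Exo1 (-2.55), Mcm3 (-1.22), Chaf1b (-1.92), Kif23 (-0.995) and Nasp (-0.44, adjusted p = 0.038). These values and those of the valve share the tubule Sertoli-like cells they were set against. Cdk1 stood at 37.8, 10.4, 69.3 and 51.1 CPM in RT-like cells, all below the tubule cells. The calls for Kif23 (adjusted p = 0.0883) and Mcm3 (adjusted p = 0.0804) were lost without control 2, and that for Nasp was lost without either control or without Sox17-cKO 1, where adjusted p was 0.0613.

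Set directly against RT-like cells, SV Sertoli-like cells were higher in 0 of 30 genes tested and lower in 14 (20.6% and 24.2% of all genes tested), with a median log2 fold change of -0.67. The filter on low counts can keep a gene by its RT-like counts alone. Nusap1 held 1, 2, 6 and 4 UMIs in SV Sertoli-like and 7, 3, 25 and 16 in RT-like cells. The tested genes may thus lean towards those high in RT-like cells, which bears on both counts and on the median. With DESeq2 3 were lower (7.15% of all genes). Top2a (-1.28, adjusted p = 0.00021), Ube2c (-2.08, adjusted p = 0.00031), Birc5 (-1.84, adjusted p = 0.00035), Gins2 (-1.93, adjusted p = 0.00043), Mki67 (-1.78, adjusted p = 0.00089) and Nusap1 (-2.03, adjusted p = 0.001) were the lower genes with the smallest adjusted p. This result depends on Sox17-cKO 1 and, less, on control 1, without which 8 genes were lower (21.3% of all genes tested). Without Sox17-cKO 1, 3 genes were lower, whereas 21.5% of all genes tested still were, and Mki67 (adjusted p = 0.119), Nusap1 (adjusted p = 0.0693) and Ube2c (adjusted p = 0.0649) no longer passed. Over the libraries numbered 2 alone, Ube2c stood at a log2 difference of 0.20, with 6.65 and 41.97 CPM in SV and 6.93 and 37.6 CPM in RT-like cells.

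Of the pathway lists, RT-like cells were higher in 8 of 46 mitosis genes and lower in 5, with Racgap1 (-2.65), Prc1 of the central spindle (1.99) and Cks1b (-1.06) at the smallest adjusted p. They were higher in 5 of 44 replication genes and lower in 9, with Usp1 (1.70), Orc6 of the origin recognition complex (-1.01) and Atad2 (1.21) leading. Of 25 regulators 6 were higher and 5 lower. Beside 24.6% higher and 28.4% lower genes over all genes tested, none of the 3 lists held a larger share in either direction. The inhibitor Cdkn2c (3.55), Ccnd3 (4.14), Ccnd2 (1.74), Ccnd1 (2.10) and the inhibitor Cdkn1c (2.13) were among the higher ones.

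**Figure D4:**
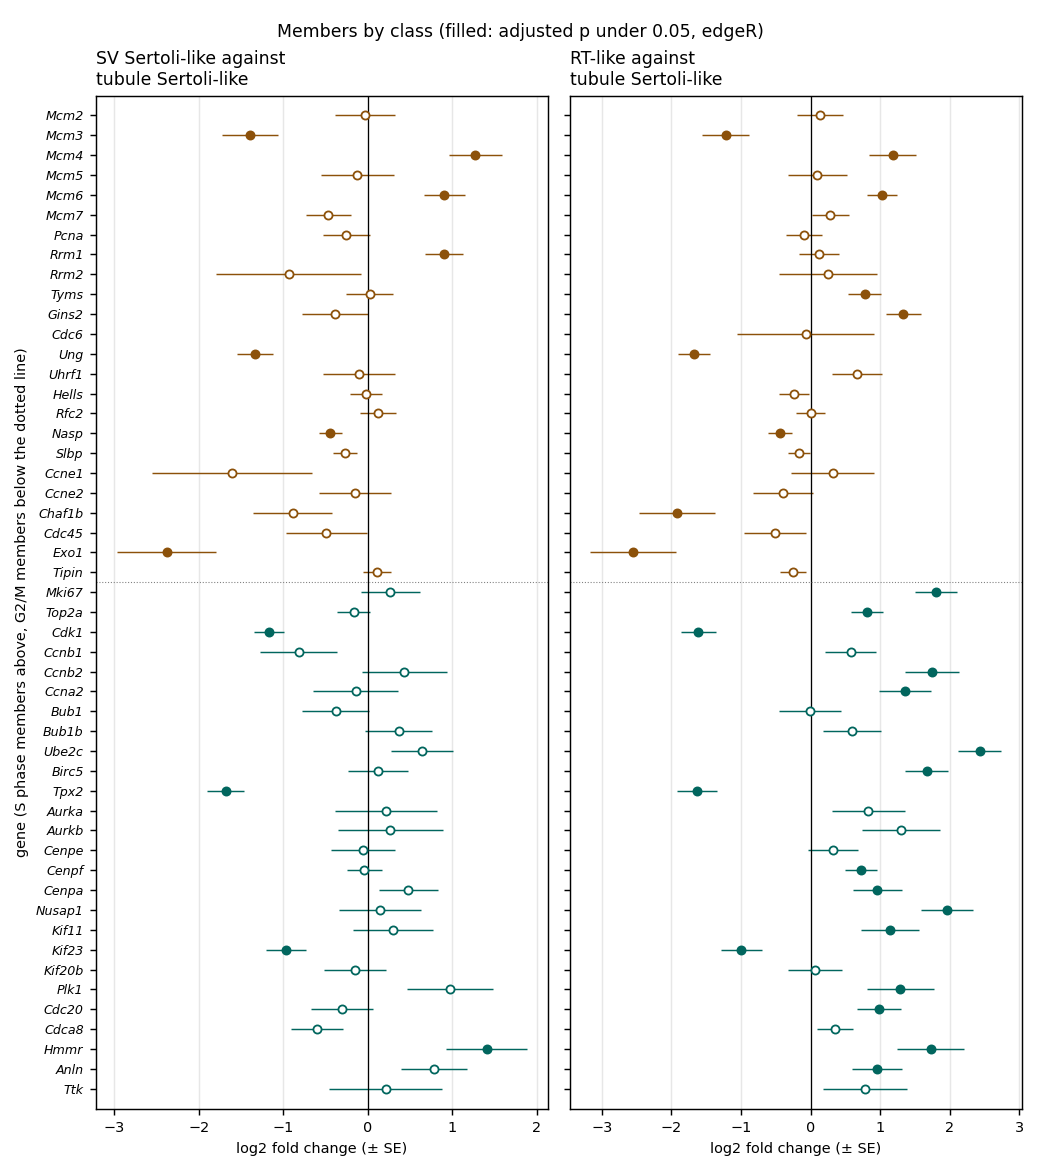
Log2 fold change against tubule Sertoli-like cells for each of the listed genes in SV Sertoli-like and RT-like cells, with standard errors as bars. Ube2c at 2.43 and Mki67 at 1.80 are high in RT-like cells, whereas Cdk1 (-1.17 and -1.61) and Tpx2 (-1.68 and -1.63) lie below 0 in SV and RT-like cells.

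Cells with a broad mitotic programme were found in all 3 stromal classes. Of fibroblast-like cells 57 of 2962 held 10 or more G2/M genes (1.92%, 1.46 to 2.49%), with 3.96, 0.605, 1.55 and 2.19% in the 4 libraries. Of peritubular myoid-like cells 23 of 2217 did (1.04%, 0.659 to 1.55%), and here the libraries were close, at 1.25, 0.915, 1.10 and 1.05%. Of interstitial stromal-like cells 5 of 1642 did (0.305%, 0.0989 to 0.709%), with 0.667, 0.285, 0 and 0.298% in the 4 libraries. The classes drew on the libraries in different proportions, and in control 2 the myoid-like share stood above the fibroblast-like one. These cells held means of 0.93, 0.83 and 0.20 UMIs of the germ cell list in fibroblast-like, myoid-like and interstitial stromal-like cells, beside 0.551, 0.473 and 0.653 in cells with fewer than 3 G2/M genes. In every library the interstitial stromal-like share was the lowest of the 3. Among retained cells, all 3 pooled intervals lie above the limit of tubule Sertoli-like cells, 0.0643%. That value leaves out the tubule Sertoli-like cells removed for their number of detected genes, some of which held 10 or more G2/M genes. The intervals count cells and not libraries, and the interstitial stromal-like share was 0 in Sox17-cKO 1. A difference from tubule Sertoli-like cells was therefore not tested.

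With 3 or more G2/M genes the shares were 6.42% in fibroblast-like (11.9, 2.92, 8.35 and 5.23%), 3.43% in myoid-like and 2.80% in interstitial stromal-like cells, beside 3.65, 1.67 and 3.41% with 3 or more germ cell genes. The share of fibroblast-like cells was 2.37% when the 50 genes were kept for clustering, where 130 of these cells fell into another cluster. The genes counted could then help to sort the cells, so this share is not an independent check. In fibroblast-like cells the G2/M sum was 1320, 290, 711 and 642 CPM (741 ± 428 CPM). Mki67 stood at 93.1, 17.3, 43.8 and 39.2 CPM in these cells, at 46.6, 23.45, 45.4 and 28.7 CPM in myoid-like and at 29.3, 10.1, 25.7 and 21.3 CPM in interstitial stromal-like cells. Of fibroblast-like cells with Mki67, 63.9% held 2 or more other G2/M genes, against 6.99% of those without.

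Against tubule Sertoli-like cells, 36 of 50 genes were higher and 6 lower in fibroblast-like cells, where 36.4% and 36.3% of all genes tested were, so higher genes were more frequent in the list. Rrm2 (log2 fold change 2.03), Mki67 (1.97, adjusted p = 8.4e-06), Hmmr (1.79), Ube2c (1.79), Mcm4 (1.37) and Mcm6 (0.97) led, and Ung (-1.70), Chaf1b (-1.47), Tpx2 (-1.39), Exo1 (-1.09), Cdk1 (-0.90) and Kif23 (-0.41) were lower. In myoid-like cells 26 were higher and 8 lower (36.0% and 37.4% of all genes), again with more higher genes than the background, led by Anln of the contractile ring (2.00), Nusap1 (1.62), Mki67 (1.61), Ube2c (1.57), Hmmr (1.56) and Mcm4 (1.24). The lower ones included Ung (-2.64), Chaf1b (-2.35), Tpx2 (-1.75), Cdk1 (-1.44), Exo1 (-1.31), Kif23 (-1.03) and the histone mRNA binder Slbp (-0.34). In interstitial stromal-like cells 11 were higher and 8 lower (33.8% and 35.5% of all genes), below the background in both directions, with Mcm4 (1.60), Anln (1.11), Cenpa (0.94), Mki67 (0.74), Mcm2 (0.67) and Mcm6 (0.66) leading. Tpx2 (-2.79), Chaf1b (-2.75), Ung (-2.13), Cdk1 (-2.11), Kif23 (-1.60), Exo1 (-1.50), Mcm3 (-0.54) and Gins2 (-0.54) were lower there. The number of higher genes in interstitial stromal-like cells was 6 without Sox17-cKO 2 (29.1% of all genes tested) and 19 without Sox17-cKO 1 (34.4%). When the 50 genes were kept for clustering, 1 cluster with the 17 mesothelial-like cells took up 130 fibroblast-like and 57 myoid-like cells, and in the cells that kept their names 9 genes were higher and 14 lower for fibroblast-like (35.9% and 36.6% of all genes) and 3 higher and 17 lower for myoid-like cells (35.6% and 37.4%), with Hmmr and Ube2c then below tubule cells in both. In that clustering the tested genes could help to sort the cells, so these last counts and directions are not an independent check. All 3 comparisons share the same tubule Sertoli-like cells.

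Undifferentiated spermatogonia-like cells, set against the same tubule cells, were higher in 47 genes and lower in 2 (39.0% and 40.2% of all genes), with a median log2 fold change of 2.01. Uhrf1, which keeps DNA methylation through replication (3.16), Bub1b (2.88), Cenpe (2.87), Cenpf (2.85), Mcm7 (2.75) and Mcm2 (2.62) led. The lower genes were Cdk1 (-1.32 ± 0.13, adjusted p = 5.4e-08) and Tpx2 (-0.81 ± 0.14, adjusted p = 5.6e-05), and Kif23 did not pass (-0.14, adjusted p = 0.315). Cdk1 stood at 51.5, 36.4, 43.9 and 56.9 CPM in these spermatogonia, below tubule Sertoli-like cells in all 4 libraries.

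Among the somatic classes, macrophage-like and Leydig-like cells held the largest observed shares of such cells. Of macrophage-like cells 13 of 242 held 10 or more G2/M genes (5.37%, 2.89 to 9.01%), 1 of 28, 4 of 84, 4 of 50 and 4 of 80 in the 4 libraries. Of Leydig-like cells 14 of 243 did (5.76%, 3.19 to 9.48%), 0 of 13, 3 of 79, 3 of 45 and 8 of 106. These cells held means of 0.846 and 0.214 UMIs of the germ cell list, beside 0.516 and 0.268 in cells with fewer than 3 G2/M genes. Of pericyte-like cells 7 of 296 reached this number (2.37%), holding a mean of 2.29 UMIs of that list beside 0.555, and of endothelial-like cells 2 of 71 (2.82%), both in Sox17-cKO 1.

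The G2/M genes summed to 2421, 1491, 2476 and 1905 CPM in macrophage-like cells (2073 CPM), beside 2396 CPM in undifferentiated spermatogonia-like cells, while the germ cell list was at 318 CPM. Macrophage-like cells had the highest mean among somatic classes for 18 of the 24 S and 23 of the 26 G2/M genes. Mki67 was detected in 17.8% of them, against 8.82% of undifferentiated and 36.3% of differentiating spermatogonia-like cells, and stood at 252, 151, 279 and 176 CPM. In the clusters that form the differentiating class, Mki67 was detected in 43.55% and 16.78% of cells. Cyclin D1 was high in macrophage-like cells, at 248.5 CPM, and so was Cdkn1a, at 812 CPM. In Leydig-like cells the G2/M sum was 690, 535, 1062 and 1311 CPM (900 CPM), and 83.6% of it lay in the cells with 3 or more G2/M genes, which held a median of 10 such genes against 3 in the corresponding tubule Sertoli-like cells. Cells in control 1 were few here.

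**Figure D5:**
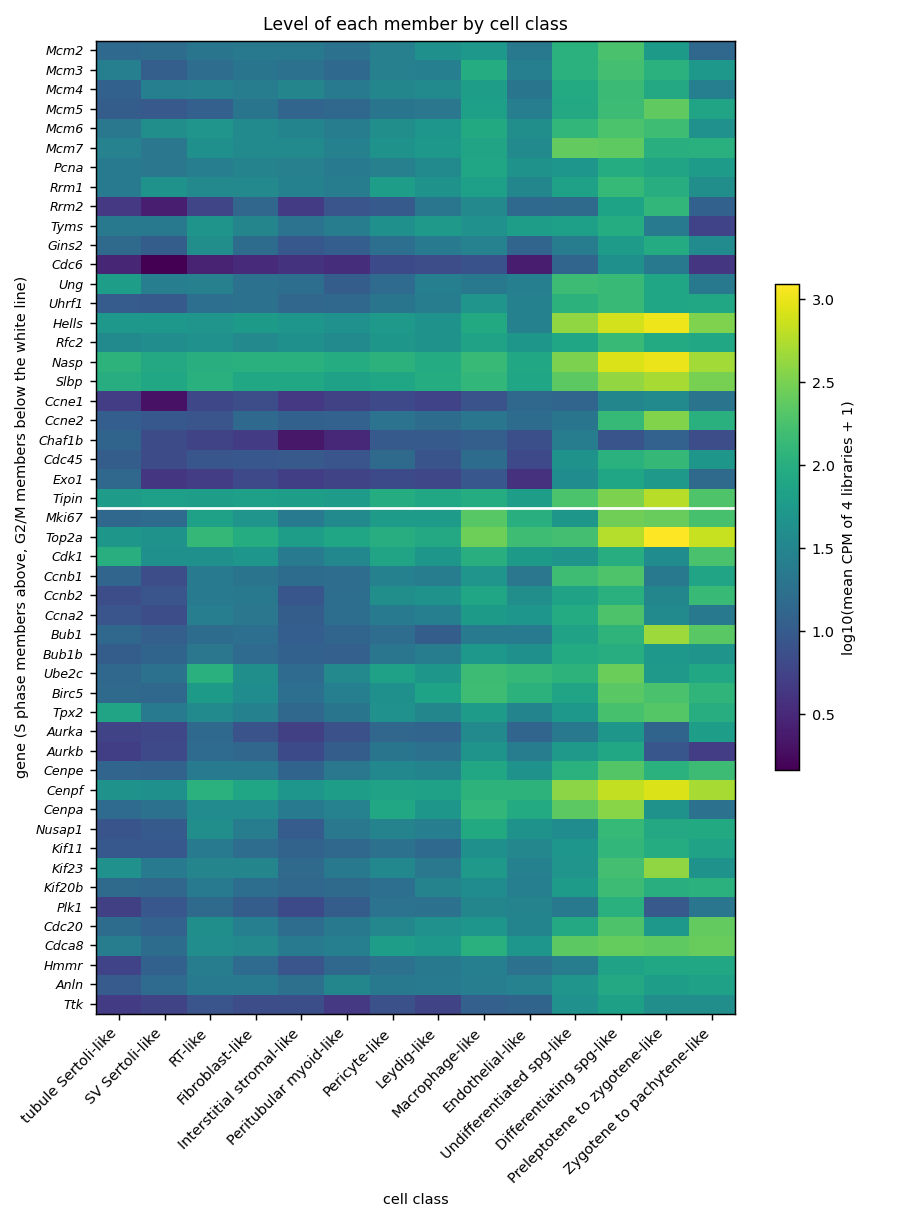
Mean level of each of the 50 genes in each cell class, in CPM on a log colour scale, with S genes and G2/M genes in separate blocks. The differentiating spermatogonia-like and preleptotene to zygotene-like columns are brightest, macrophage-like cells are the brightest somatic column, and Cdk1 stands out in tubule Sertoli-like cells at 97.5 CPM.

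A panel of 16 genes followed through all classes shows how the phases divide. Means over the 4 libraries are given for tubule Sertoli-like, SV Sertoli-like and RT-like cells, then for the range of the stromal classes (fibroblast-like, interstitial stromal-like and myoid-like). Mcm2, of the helicase, stood at 13.7, 14.8 and 19.1 CPM and between 17.0 and 21.4 CPM in stroma. It reached 107.1 CPM in undifferentiated and 178 CPM in differentiating spermatogonia-like cells and fell off to 56.0 and 12.9 CPM along meiosis. Mcm5 stood at 9.59, 8.56 and 10.4 CPM, at 12.2 to 18.9 CPM in stroma and highest in preleptotene to zygotene-like cells at 239 CPM. The 2 helicase genes thus peaked in different germ cell classes.

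Pcna, the sliding clamp, stood at 23.3, 20.3 and 25.1 CPM, at 22.6 to 28.8 CPM in stroma and at 93.9 CPM in differentiating spermatogonia-like cells. Rrm2 stood at 3.46, 1.56 and 4.94 CPM and was highest in preleptotene to zygotene-like cells at 126 CPM, and in SV Sertoli-like cells it rests on 2, 0, 0 and 1 UMIs. Tyms, which makes thymidylate, was higher in RT-like cells at 47.2 CPM than in the Sertoli cells at 21.3 and 21.4 CPM, and reached 60.8 CPM in endothelial-like cells. Tyms was lowest in zygotene to pachytene-like cells, at 4.63 CPM, and 94.1 CPM in differentiating spermatogonia-like cells.

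The E cyclins were at low levels in somatic cells. Ccne1 stood at 3.92, 1.01 and 5.35 CPM and was highest in preleptotene to zygotene-like cells at 36.0 CPM. Ccne2 stood at 9.80, 8.30 and 7.65 CPM, at 13.6 CPM in fibroblast-like cells, at 19.2 CPM in undifferentiated and at 345 CPM in preleptotene to zygotene-like cells. Uhrf1 stood at 9.34, 8.77 and 16.2 CPM, at 48.6 CPM in macrophage-like and at 139 CPM in differentiating spermatogonia-like cells. The means of all 3 genes were higher in each spermatogonial class than in the Sertoli and RT-like classes.

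Of the G2/M genes, Mki67 stood at 13.2, 14.3 and 68.1 CPM, at 21.6 to 48.4 CPM in stroma, at 59.8 CPM in pericyte-like, 58.3 CPM in Leydig-like, 100 CPM in endothelial-like and 214 CPM in macrophage-like cells. Top2a stood at 50.7, 43.9 and 127 CPM and was highest in preleptotene to zygotene-like cells at 1232 CPM, above the 587 CPM of differentiating spermatogonia-like cells. Birc5 stood at 13.9, 13.4 and 57.1 CPM, at 70.8 CPM in Leydig-like and at 152 CPM in macrophage-like cells. In these 3 genes RT-like cells stood above both Sertoli classes in the mean, by the libraries described above.

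Cyclin B1 stood at 12.0, 6.14 and 23.3 CPM, at 48.3 CPM in macrophage-like cells, and at 151 and 189 CPM in undifferentiated and differentiating spermatogonia-like cells. Cyclin A2 stood at 7.51, 6.097 and 25.4 CPM, at 89.98 and 185 CPM in these spermatogonia and at 34.98 and 21.5 CPM along meiosis. Aurora A (Aurka) stood at 4.88, 5.19 and 13.7 CPM and was highest in zygotene to pachytene-like cells at 60.5 CPM. Plk1 stood at 4.27, 8.02 and 14.02 CPM and was highest in differentiating spermatogonia-like cells at 104 CPM, where its 4 values were 70.9, 129, 75.3 and 141 CPM. Cdk1 was highest in zygotene to pachytene-like cells at 178 CPM and stood at 101 CPM in macrophage-like cells, and its 97.5 CPM in tubule Sertoli-like cells was higher than in any somatic class other than macrophage-like cells.

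None of the 50 genes passed the test between Sox17-cKO and control in any of the 14 classes. The edgeR test of 2 against 2 libraries called 0 members, and DESeq2 also called 0. This holds with the filter on low counts and without a term for the library number, which goes with the software version. Without the filter 4 genes passed in RT-like cells (0.643% of all genes tested), and the fits with a library left out gave 0 to 7 in RT-like (0.549 to 1.25%), 0 to 2 in fibroblast-like (0.0 to 0.618%) and 0 to 3 in endothelial-like cells (0.0482 to 0.72%). With the number as a block, 5 genes passed in RT-like, 1 in myoid-like (Cenpf, 0.86) and 1 in Leydig-like cells (Top2a, 1.92), where 3.27%, 0.561% and 0.0648% of all genes tested did. Over all genes the share called was 0.0% in every class except RT-like cells, where it was 0.132%. At an unadjusted p under 0.05 edgeR found 0 of 50 genes in tubule Sertoli-like (0.806% of all genes tested), 1 of 13 in SV Sertoli-like (1.68%), 4 of 29 in RT-like (5.74%), 0 of 50 in fibroblast-like (0.573%), 1 of 44 in interstitial stromal-like (0.597%) and 2 of 49 in myoid-like cells (0.725%). It found 5 of 32 in pericyte-like (1.51%), 10 of 43 in Leydig-like (1.21%), 3 of 43 in macrophage-like (1.08%) and 1 of 9 in endothelial-like cells (3.27%), and 0 in each of the 4 germ cell classes (0.156 to 0.494%). Genes not tested had too few counts. With so few libraries these results limit what could be detected and do not show that levels were equal.

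In RT-like cells, where Sox17 was lower, the smallest unadjusted p values belonged to Mcm7 (log2 fold change 1.72, adjusted p = 0.299), Mki67 (2.36, adjusted p = 0.674) and Top2a (2.10, adjusted p = 0.707). Mcm7 stood at 18.9 and 19.0 CPM in control and at 69.3 and 61.7 CPM in Sox17-cKO libraries. Mki67 stood at 37.8 and 8.66 CPM in control and at 179 and 46.6 CPM in Sox17-cKO, and Top2a at 83.2 and 17.3 CPM and at 318 and 90.2 CPM. The G2/M sum rose from 1082 to 2157 CPM between the libraries numbered 1 and from 140 to 602 CPM between those numbered 2, while the germ cell list went from 420 to 575 CPM and from 90.02 to 212 CPM. With the library number as a block, Top2a (2.05, adjusted p = 1.41e-05), Mki67 (2.25, adjusted p = 0.000249), Mcm7 (1.71, adjusted p = 0.0118), Nusap1 (1.96, adjusted p = 0.0131) and Cdk1 (1.53, adjusted p = 0.0402) passed by edgeR, all higher in Sox17-cKO. Without that block, Mki67 had an adjusted p of 0.000296 when control 1 was dropped and of 0.00093 when Sox17-cKO 2 was, but of 0.817 and 0.438 when it was control 2 or Sox17-cKO 1. The values for Top2a were 5.47e-05 and 0.0018, and 0.92 and 0.3615. Each of these fits has 1 library in a group, which is assumed to vary like the other group, so they bear little weight. The study stained KI67 in the rete epithelium at the same age. It reported a similar share of positive cells in both genotypes, a measure of protein and not of RNA.

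In Leydig-like cells Top2a (1.87, unadjusted p = 0.00054), Nusap1 (2.06, unadjusted p = 0.0025) and Plk1 (1.95, unadjusted p = 0.0078) had the smallest p, each with an adjusted p of 1.0. Top2a stood at 15.5 and 44.9 CPM in control and at 132 and 149 CPM in Sox17-cKO libraries, and control 1 held 13 of these cells. In SV Sertoli-like cells the smallest belonged to Mcm6 (-1.17, unadjusted p = 0.021), Cdk1 (0.83, unadjusted p = 0.077) and Cenpf (0.80, unadjusted p = 0.133), with an adjusted p of 0.9998 in each. In tubule Sertoli-like cells they belonged to Mcm3 (-0.61, unadjusted p = 0.053), Ccne2 (0.69, unadjusted p = 0.1075) and Ccnb1 (-0.64, unadjusted p = 0.163). The change in the valve was also set against that in the tubules, and 0 of 49 genes passed (0.0174% of all genes), with 4 at an unadjusted p under 0.05 (3.92% of all genes). Ube2c had the smallest p there (2.26, unadjusted p = 0.0011).

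In the remaining classes none passed the threshold in the fit without a block. The genes with the smallest p were Ccne2 (2.60), Top2a (1.20) and Cenpe (1.35) in pericyte-like cells, Mcm2 (-1.01), Plk1 (1.14) and Aurka (-1.22) in macrophage-like cells, and Top2a (1.81), Slbp (1.18) and Cenpf (1.20) in endothelial-like cells. In stroma they were Ccne1 (-0.50), Pcna (-0.37) and Ccne2 (0.47) for fibroblast-like, Ube2c (-1.27), Ccnb2 (-1.65) and Kif23 (0.68) for interstitial stromal-like, and Plk1 (0.93), Rfc2 (-0.59) and Kif23 (0.78) for myoid-like cells. In undifferentiated spermatogonia-like cells Mcm3 (-0.41), Mcm6 (-0.36) and Ccna2 (-0.48) had the smallest p, and in differentiating ones Mcm3 (-0.34), Gins2 (-0.34) and Tyms (-0.25). In preleptotene to zygotene-like cells Chaf1b stood at -0.74, and in zygotene to pachytene-like cells Plk1 at 0.66.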

How the data were processed

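Cells were captured with the 10x Genomics 3' kit, and the authors aligned reads to mm10 and counted UMIs with Cell Ranger (6.0.2 for the libraries numbered 1, 6.1.2 for those numbered 2, per the file headers). The deposited values are whole UMI counts per gene and barcode without normalization, for the barcodes that Cell Ranger called as cells. Tables in which the libraries were combined were not used here.

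Cells with 1000 to 4500 detected genes were kept, which left out 15606 barcodes below and 7828 above this range. The stricter mitochondrial limit of the study was not applied. Scrublet called 0, 43, 0 and 104 of the retained cells as doublets. It made no call in the libraries numbered 1, so it did not work there, and no cell was removed. Counts were integrated by canonical correlation and clustered with Seurat 5.3.0 (R 4.3.3; 2000 variable features without the listed and other cell cycle genes, 20 principal components, resolution 0.4, and 0.8 for preleptotene-like cells). Clusters were named from marker lists by a rule written after the clusters were seen: a list's mean z score of at least 1 and at least 1 of its markers among the 20 leading genes.

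UMIs were summed per class and library and compared with edgeR 4.0.16 (TMM, filterByExpr, quasi-likelihood test, two-sided, Benjamini-Hochberg over all genes tested, threshold 0.05), classes with the library as a block and genotypes with 2 against 2 libraries. DESeq2 1.42.0 was an alternative. Fold changes use TMM scaling, and CPM use all UMIs of the class. List sums and shares are descriptions without a test. Shares were taken after thinning each cell to 2000 UMIs, which left out shallower cells, with exact (Clopper-Pearson) 95% intervals. A count of 0 allows a share of up to 3 cells of the total. Scanpy 1.11.5, pandas 2.3.3, SciPy 1.17.1, NumPy 2.4.6 and matplotlib 3.10.9 ran in Python 3.11.15, and the steps across genes were tested on simulated data.

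The genes, the pathway lists (119 genes found) and the marker lists were chosen with earlier results of these data known. Genes were named by a rule: a panel of 16 in every class, in each class comparison up to 6 with the smallest adjusted p in each direction and every gene against the majority, 3 with the smallest unadjusted p for genotype and 3 per pathway list, plus 9 regulators. Promoters came from RefSeq and a library total lay between 89969877 and 107203219 UMIs.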

Additional observations from a re-analysis of the deposited data

Results flagged for a closer look

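Cells with over 4500 detected genes were left out of all comparisons, and they held the G2/M genes too. After thinning to 2000 UMIs, 3 or more G2/M genes were held by 21.36% of 1756 such tubule Sertoli-like cells, 11.94% of 201 SV Sertoli-like cells and 9.756% of 246 RT-like cells. In stroma the values were 45.66% of 173 fibroblast-like, 42.74% of 124 peritubular myoid-like and, with few cells, 65.38% of 26 interstitial stromal-like cells, so the order of the retained cells did not hold here. They were 22.08% of 77 Leydig-like and 40% of 70 endothelial-like cells. In germ cells they were 82.98% of 1763 undifferentiated and 96.39% of 2411 differentiating spermatogonia-like cells, 94.05% of 336 preleptotene to zygotene-like and 95.10% of 367 zygotene to pachytene-like cells. These shares were marked because they come from cells that the comparisons do not use and are above 0, which by itself shows nothing further, since retained cells of the same classes held these genes too.

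The limit on detected genes thus removed cells with G2/M genes unevenly. Of all fibroblast-like cells with 3 or more G2/M genes, 29.4% lay above it, against 3.28% of the rest, and in myoid-like cells 41.1% against 3.21%. In tubule Sertoli-like cells the values were 45.9% against 24.6%, in SV Sertoli-like cells 75.0% against 46.1% and in RT-like cells 63.2% against 51.9%. They were 73.8% against 55.6% in undifferentiated and 43.3% against 22.25% in differentiating spermatogonia-like cells. Germ cell RNA moved with this as well: above the limit, cells with 3 or more G2/M genes and the rest held means of 4.04 and 1.12 UMIs of the germ cell list in tubule Sertoli-like, 4.18 and 1.05 in fibroblast-like, 5.38 and 1.25 in myoid-like, 0.62 and 0.33 in RT-like and 0.36 and 0.50 in endothelial-like cells. Doublets could not be told from large dividing cells in the libraries where Scrublet made no call, and their part was not tested.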

How the results depend on the processing

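Of 1402 alternative values for named genes of the class comparisons, 1303 kept their direction and their side of the threshold, 93 no longer passed and 6 reversed, and of 607 for genotype 593 kept their side of the threshold and 14 newly passed. Of 457 counts 409 stayed within 1.5 times. Of the shares of cells 69 moved by 1 SD over the libraries or more and 180 by less. The cause was not tested unless named.

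Percentages in parentheses are the shares of all genes called in the same fit and direction. Counts of genes higher and lower in the valve than in the tubules were 4 and 7. Leaving out a library gave 2 to 7 higher (11.6 to 13.1%) and 6 to 8 lower (10.6 to 12.9%), under 10% mitochondrial UMIs gave 2 higher (13.1%), the libraries numbered 1 alone 1 higher (10.0%) and those numbered 2 alone 3 lower (8.67%). For RT-like against tubule cells (18 and 8), leaving out a library gave 10 to 20 (19.7 to 24.5%) and 5 to 8 (23.3 to 27.6%), adding cells over 4500 genes 11 (28.8%) and 13 (30.8%), DESeq2 10 (15.0%) and 5 (12.1%), the libraries numbered 1 11 (13%) and 2 (12.8%), and those numbered 2 8 higher (24.1%). For the valve against RT-like cells (0 and 14), leaving out a library gave 0 to 1 (18.4 to 19.3%) and 3 to 14 (19.9 to 21.5%), adding cells over 4500 genes 5 higher (26.3%), DESeq2 3 lower (7.15%), the libraries numbered 1 9 lower (16.4%), and those numbered 2 1 higher (18.6%) and 1 lower (20.1%), with Ube2c reversed at 0.1975. For differentiating against undifferentiated spermatogonia-like cells, 1 to 2 genes were lower without a library (27.7 to 33.1%) and 2 with cells over 4500 genes (34.3%). For undifferentiated spermatogonia-like against tubule cells 1 was lower with the latter (40.4%).

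Keeping cell cycle genes in the clustering moved 130 fibroblast-like, 57 myoid-like, 19 Leydig-like and 7 interstitial stromal-like cells into 1 cluster with the 17 mesothelial-like cells. The tested genes could then help to sort the cells, so values of cells that kept their names are not an independent check. Of the fibroblast-like cells that kept their name, 2.373% had 3 or more G2/M genes. Then 3 genes were higher (35.6%) and 17 lower (37.4%) in myoid-like cells, with Hmmr at -1.514, Nusap1 at -0.5376 and Ube2c at -0.721, and 9 higher (35.9%) and 14 lower (36.6%) in fibroblast-like cells, with Hmmr at -0.377 and Ube2c at -0.5082. Without a library, 18 to 28 were higher in myoid-like (32.5 to 36.3%) and 28 to 36 in fibroblast-like cells (33.1 to 35.9%), and with cells over 4500 genes 17 in myoid-like cells (31.4%). In interstitial stromal-like cells the 11 higher genes became 7 (33.5%), 2 with cells over 4500 genes (28.6%), 4 under 10% mitochondrial UMIs (33.5%), 3 and 19 for the libraries numbered 1 and 2 (23.8% and 36.3%), and 6 to 19 without a library (29.1 to 34.4%). No SV cluster formed without integration, so the valve has no value there.

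The share with 3 or more G2/M genes depends on depth. At 4000 UMIs it was 24.7% in tubule and 12.96% in SV Sertoli-like, 11.21% in fibroblast-like, 7.993% in interstitial stromal-like, 7.784% in myoid-like, 91.23% in undifferentiated and 98.58% in differentiating cells, and at 1000 UMIs 0.8511% in SV Sertoli-like, 37.12% in undifferentiated and 68.4% in differentiating cells. In cells over 4500 genes alone it was 21.36, 11.94, 45.66, 65.38, 42.74, 82.98 and 96.39% in tubule, SV, fibroblast-like, interstitial stromal-like, myoid-like, undifferentiated and differentiating cells, and with them added 7.692% in SV Sertoli-like and 78.6% in undifferentiated cells. With 2 or more genes it was 27.11, 12.56, 12.53, 10.78, 9.111, 84.47 and 96.92% in tubule, SV, fibroblast-like, interstitial stromal-like, myoid-like, undifferentiated and differentiating cells, with 5 or more 1.222, 35.53 and 72.47% in tubule, undifferentiated and differentiating cells, and with 10 or more 0.0, 0.4651, 1.924, 3.026 and 19.52% in tubule, SV, fibroblast-like, undifferentiated and differentiating cells. In undifferentiated cells it was 71.28% under 10% mitochondrial UMIs, 64.61% without Cdk1, Tpx2 and Kif23 and 59.19% with cell cycle genes kept, which gave 96.64% in differentiating cells. Without a library it ranged over 7.307 to 11.21% in tubule, 2.924 to 4.494% in SV, 3.684 to 9.396% in RT-like, 4.936 to 8.173% in fibroblast-like, 2.279 to 4.145% in interstitial stromal-like, 2.848 to 4.27% in myoid-like, 67.39 to 68.95% in undifferentiated and 88.81 to 91.92% in differentiating cells. The limit of 10 genes, the fits within a number and the count without Cdk1, Tpx2 and Kif23 were chosen after seeing the data.

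For genotype, the replicate block gave 5 genes in RT-like (3.27%), 1 in myoid-like (0.561%) and 1 in Leydig-like cells (0.0648%) and changed no other count. The numbers are not said to pair the libraries, and with 2 pairs the deviations of same-numbered libraries correlated at 0.1754 to 0.6772. No filter gave 4 in RT-like cells (0.643%). Without a library there were 0 to 7 in RT-like (0.549 to 1.25%), 0 to 2 in fibroblast-like (0.0 to 0.618%), 0 to 3 in endothelial-like cells (0.0482 to 0.72%) and 0 to 1 for the difference between valve and tubules (0.0249 to 0.0827%). Depth limits the small classes: of the 50 genes 9 in endothelial-like, 13 in SV Sertoli-like and 29 in RT-like cells had enough counts to be tested between genotypes.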
